A study of Mus musculus with 10 samples.

Results

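The 42 genes described here act in S phase, the part of the cell cycle in which DNA is copied, and were chosen by symbol from a list of replication genes. All 42 have a row among the 14796 named genes of the deposited expression table. The RNA came from telencephalon, the front of the embryonic brain, from which cortex and basal ganglia form, in mouse embryos at day 12. The 10 samples form 4 groups, set by genotype and by the stem of the title, which is either Polr_2048 or Polr_2138. The null set (stem Polr_2048) holds 2 wild-type samples and 2 samples with a null allele of Polr1a. The missense set (stem Polr_2138) holds 3 wild-type samples and 3 samples with a missense allele whose protein change is C1559F. Polr1a codes for the catalytic core subunit of RNA polymerase I, which makes ribosomal RNA. The sources used here do not give the zygosity of the mutants, any driver that limits an allele to certain cells, or what the title stems stand for. Each value is a log2 of CPM (reads of a gene scaled to a fixed sample total) with a small offset, and all differences below are on that log2 scale.

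Replication starts when the origin recognition complex, Cdc6 and Cdt1 load the Mcm2-7 helicase onto DNA in G1, and Cdc45 and the GINS complex then switch it on. Polymerases, the sliding clamp Pcna and its loader copy the strands, while ribonucleotide reductase and thymidylate synthase supply nucleotides and histone chaperones rebuild chromatin. E2F transcription factors drive many of these genes at the G1/S transition, and cyclin E with Cdk2 releases E2F from the retinoblastoma protein. Among the neural cells of the embryonic telencephalon, the progenitors of the ventricular and subventricular zones cycle, and neurons have left the cycle. Values from whole tissue do not tell these progenitors from other cells in it.

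Polr1a itself, measured first to check the labels, stood at 5.38 and 5.38 in wild types of the null set and at 4.99 and 4.82 in the null samples (difference -0.48, SE 0.20, n = 2 against 2, limma adjusted p = 0.563). It stood at 5.62, 5.51 and 5.64 in wild types of the missense set and at 5.09, 5.66 and 5.79 in the missense samples (difference -0.08, SE 0.16, n = 3 against 3, limma adjusted p = 0.964). Both null samples lay below both of their wild types, while the missense samples overlapped theirs. Of 8 telencephalon markers 0 were at the floor in any sample. The cortical markers Emx1, Emx2 and Lhx2 had null differences of -0.09, 0.22 and 0.10, but markers of the ventral telencephalon were lower in null: Dlx1 fell by 1.38, Dlx2 by 1.68 and Nkx2-1 by 1.91 (limma adjusted p = 0.000369, 0.0128 and 0.0443). These calls rest on the fit of all 10 samples: with the null set fitted alone 0 genes were called. Pairwise correlations between samples ran from 0.938 to 0.964. The sequencing depth is unknown because each sample is scaled to nearly the same total (1000453 to 1000891 when back-transformed), so no counting error can be given. The labels do not say whether samples came from separate litters, and p-values measure only the spread between these samples.

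The promoters of the replication genes were searched for short strings. The genes were chosen by symbol, but E2F drives many of them, so E2F strings were likely from the choice. RefSeq promoter windows (build GRCm38.p6, 250 bases before to 50 bases after the start) were matched for 32 of the 42 genes. An E2F string, any of TTTCCCGC, TTTGGCGC, TTTCGCGC or TTTGCCGC on either strand, occurred in 12 of these 32 genes (37.5%) and in 2.61% of all 27025 genes with a window. CCAAT occurred in 22 of 32 (68.8%) against 41.1% of all genes, and TTTGAA, part of an element of many G2 genes, in 6 of 32 (18.8%) against 20.2%. The 12 genes were Cdc6, Cdca7, Clspn, Dtl, Hells, Mcm3, Mcm5, Mcm6, Mcm7, Pola1, Pold3 and Uhrf1. A match describes the letters only and shows no binding. The set of all genes was neither limited to those measured here nor matched for base content.

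To show how these strings lie in helicase, polymerase and chromatin genes, 5 stretches upstream of the start are printed with E2F strings in capitals and up to 30 bases on each side. Mcm5 and Mcm6 each hold 2 such strings, one per strand, that overlap each other, and Mcm6 holds a further copy nearer the start. The stretches lie at chr8:75109326-75109397 (plus strand) for Mcm5, chr1:128359715-128359845 (minus) for Mcm6, chr5:138172011-138172078 (minus) for Mcm7, chrX:93632256-93632323 (minus) for Pola1 and chr19:38930898-38930965 (plus) for Hells, all in GRCm38.p6.
Mcm5: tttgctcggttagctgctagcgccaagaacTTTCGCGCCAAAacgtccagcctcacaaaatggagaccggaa
Mcm6: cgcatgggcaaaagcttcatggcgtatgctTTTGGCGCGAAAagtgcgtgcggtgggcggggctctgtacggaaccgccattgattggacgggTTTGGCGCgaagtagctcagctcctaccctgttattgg
Mcm7: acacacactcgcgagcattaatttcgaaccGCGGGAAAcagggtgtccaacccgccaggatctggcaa
Pola1: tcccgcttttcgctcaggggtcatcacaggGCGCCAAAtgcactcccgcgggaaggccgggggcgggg
Hells: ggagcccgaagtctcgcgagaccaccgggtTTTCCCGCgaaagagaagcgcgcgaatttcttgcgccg

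The replication genes were measured with little spread. Their mean levels ran from 3.85 for Dscc1 to 9.03 for Nasp, and 39 of 42 lay above the median of all genes (4.75). The median SD between replicates within groups was 0.13 over the 42 genes and 0.22 over all genes. Rrm1 had the smallest SD, 0.06, and Brip1 the largest, 0.48.

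The null comparison asked whether replication genes differ in telencephalon with the null allele. They sat on both sides of 0: 20 of 42 were higher and 22 lower than in wild types of the null set, with a median difference of -0.01, where all genes had a median of 0.03 and 45.3% lay below 0. With limma, 0 of 42 had an adjusted p under 0.05, against 0.162% of all genes, and the smallest adjusted p was 0.560. At an unadjusted p under 0.05 there were 2 (4.76%), 1 in each direction, against 8.32% of all genes. Every estimate lay between -0.43 (Mcm5) and 0.31 (Chaf1b), and for 29 of the 42 the whole 95% interval lay within 0.5 of 0 in either direction. This held for 31.0% of all genes, which had a larger median SD. The groups did not overlap for 9 genes that were lower and 5 that were higher, 21.4% and 11.9% of the 42. Over all genes those shares were 14.8% and 22.9%. The null samples were not alike: without null 1, 30 of 42 were lower (median -0.067), and without null 2, 15 were (median 0.044).

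The missense comparison asked the same of the missense allele, with its own controls. Of the 42 genes 26 were higher and 16 lower than in wild types of the missense set, with a median difference of 0.03 (all genes 0.02, with 46% below 0). With each sample centred on its median the split was 21 and 21. With limma, 0 of 42 had an adjusted p under 0.05 (0.0203% of all genes did), the smallest adjusted p was 0.884, and 1 gene, Pola1, had an unadjusted p under 0.05 (2.38%, against 5.54% of all genes). Estimates ran from -0.30 (Gins2) to 0.30 (Exo1), and for 33 of 42 the 95% interval lay within 0.5 of 0 (44.6% of all genes). Groups did not overlap for 2 lower genes, Cdca7 and Rad51ap1, and 1 higher gene, Chaf1b (4.76% and 2.38%, against 4.89% and 6.02% of all genes).

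The wild types of the 2 sets differed in one direction. In wild types of the missense set, 41 of 42 replication genes were lower than in wild types of the null set, with a median difference of -0.15 (0.900-fold), while all genes had a median of 0.02 and 46.7% lay below 0. The exception was Rad51ap1, at 0.05. No single gene passed: 0 of 42 had an adjusted p under 0.05 in limma (0.0946% of all genes did), the smallest being 0.442 for Cdc45, and 3 genes, all lower, had an unadjusted p under 0.05 (7.14%). Over all genes 7.37% had such a p, and 2.43% had it and were lower. For 20 of the 42 (47.6%) every wild type of the missense set lay below every wild type of the null set, against 9.76% of all genes, and for 0 the reverse held, against 13.7%. The genes are not independent replicates, since all are read from the same 5 samples. Leaving out wild type 1 of the null set gave 34 of 42 lower and a median of -0.12, and leaving out any other single sample gave 38 or more of 42.

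**Figure D1:**
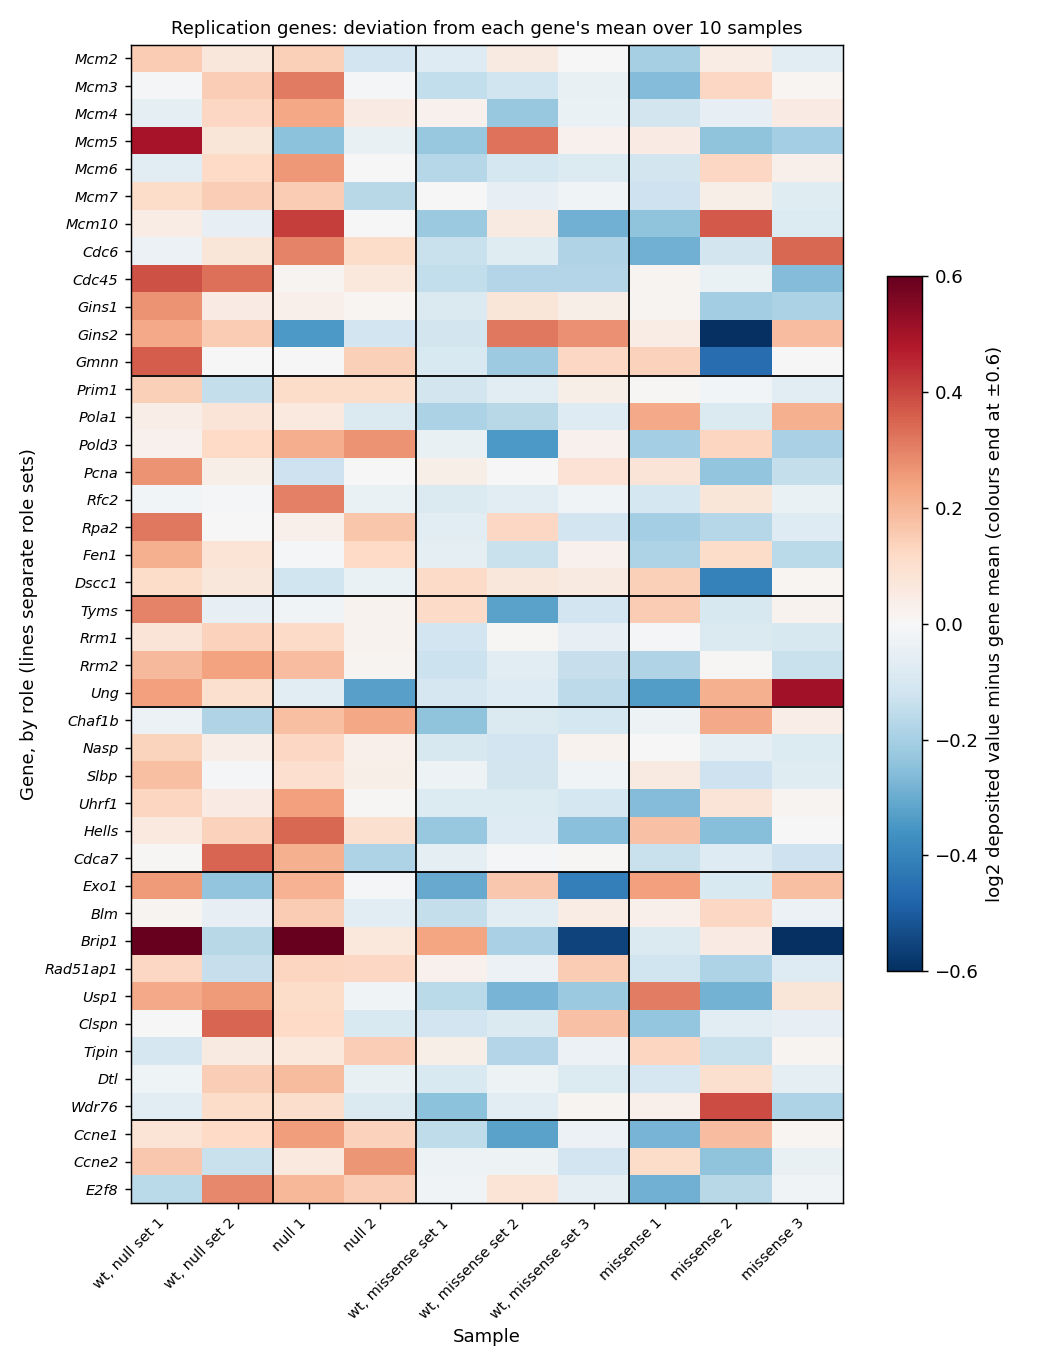
Deviation of each replication gene (rows, grouped by role) from its own mean over the 10 samples (columns), in log2 units, with red above and blue below the mean and colours that end at ±0.6. The 4 columns of the null set are mostly red and the 6 columns of the missense set mostly blue. Brip1 and Gins2, with the largest SDs within groups, show both colours within a group.

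The mutants lay on the side of their own set. The median deviation of the 42 genes from their means was 0.12 and 0.07 in wild types of the null set and 0.13 and 0.01 in the null samples. It was -0.09, -0.07 and -0.04 in wild types of the missense set and -0.06, -0.06 and -0.05 in the missense samples. All 6 samples of the missense set thus lay below all 4 of the null set. On the linear scale the summed level of the 42 genes was 5260 to 5325 CPM in the wild types and 4912 to 5427 CPM in the null samples of the null set, and 4607 to 4752 CPM in the wild types and 4739 to 4786 CPM in the missense samples of the missense set. For 40 of the 42 genes the mean of the missense set was below that of the null set, against 7092 of all 14796 genes. Of the 42, 4 genes, Cdc45, Rrm1, Rrm2 and Nasp, were lower in all 6 samples than in all 4, where 159 of all 14796 genes were. The null and wild-type contrasts share wild types of the null set, and the missense and wild-type contrasts share those of the missense set, so their values are set side by side only.

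**Figure D2:**
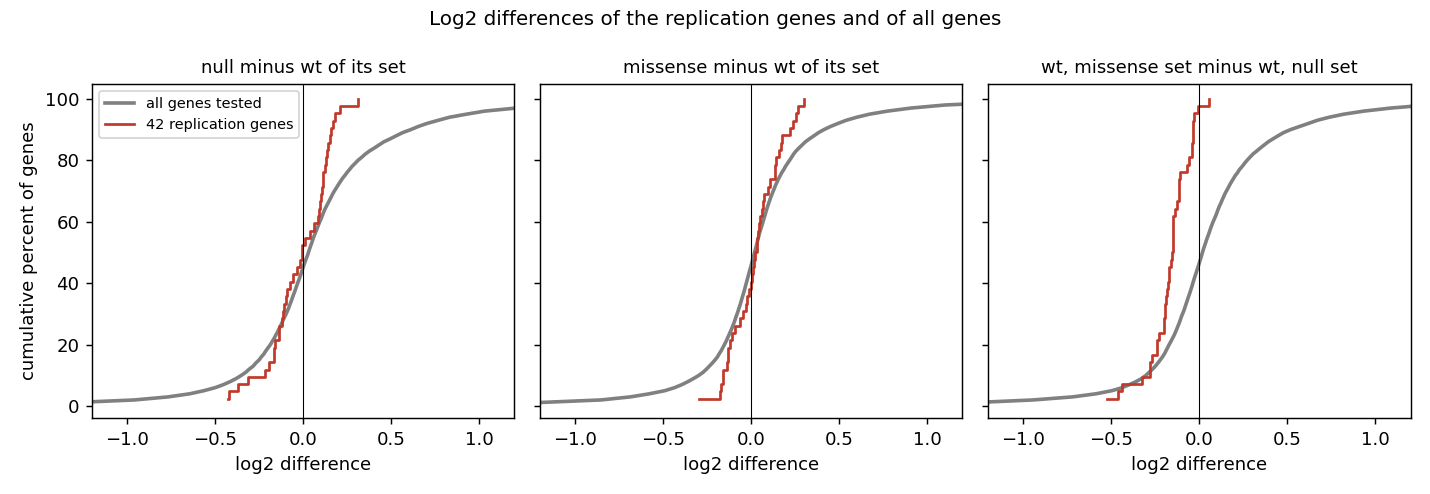
Cumulative percent of genes (vertical axis) by log2 difference (horizontal axis) for the 42 replication genes (red steps) and all genes tested (grey line) in the 3 comparisons. The red curves of the null and missense comparisons pass 0 after 22 and 16 of the 42 genes and are steeper than the grey, and in the comparison of wild types 41 of the 42 red steps lie left of 0.

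Among the genes of origin licensing and helicase, 5 were higher and 7 lower in null, 6 and 6 in missense, and 12 of 12 were lower in wild types of the missense set. Cdc45, which joins Mcm2-7 and GINS to form the active helicase, showed the clearest values. It stood at 5.65 and 5.60 in wild types of the null set, at 5.28 and 5.33 in null, at 5.12, 5.09 and 5.09 in wild types of the missense set and at 5.28, 5.23 and 5.01 in missense. The wild types of the null set lay above the 8 other samples. The wild types differed by -0.52 (SE 0.12, 95% interval -0.79 to -0.25, limma unadjusted p = 0.00128, adjusted p = 0.442). The null difference was -0.32 (SE 0.13, limma unadjusted p = 0.0373, adjusted p = 0.563) and the missense difference 0.07 (SE 0.11). With all 5 wild types as 1 control group the null difference of Cdc45 was -0.00166.

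Mcm7, the helicase subunit of highest level, stood at 8.21 and 8.25 in wild types of the null set and at 8.25 and 7.94 in null, and at 8.10, 8.05 and 8.08 in wild types of the missense set and 7.98, 8.14 and 8.03 in missense. Mutants and wild types of a set overlapped, with differences of -0.14 in null and -0.03 in missense (95% interval -0.23 to 0.16). The other helicase subunits had null differences of -0.10 (Mcm2), 0.08 (Mcm3), 0.11 (Mcm4) and 0.10 (Mcm6). Mcm5 was at -0.43 (95% interval -0.87 to 0.01, limma adjusted p = 0.616). Mcm5 also stood below its partners in level: per kilobase of its GENCODE M21 transcript its mean was 3.88, against 5.50 to 6.54 for the other 5 subunits. The annotation and counting tool behind the deposited values are not named, and their part in this gap was not tested. Mcm5 spread widely in wild types of the null set (6.13 and 5.71) and of the missense set (5.41 to 5.96). Its interval, which uses a spread pooled over the 4 groups, is wide.

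Gins1 and Gins2, subunits of the GINS complex, were lower in both null samples than in both wild types (differences -0.14 and -0.42). Gins2 had a 95% interval of -0.95 to 0.11 in null and of -0.73 to 0.13 in missense, where missense 2 stood at 5.60 and the other missense samples at 6.28 and 6.42. Cdc6, the loading factor, had differences of 0.18 and 0.11, Mcm10, which acts as the helicase is switched on, of 0.21 and 0.17, and Gmnn, whose product geminin holds Cdt1 inactive, of -0.11 and -0.05 in null and missense. None of these passed the test.

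Of the 8 genes of polymerases, clamp and lagging strand, 3 were higher and 5 lower in null, 4 and 4 in missense, and 8 of 8 lower in wild types of the missense set. Pcna, the sliding clamp, stood at 8.35 and 8.12 in wild types of the null set, at 7.96 and 8.08 in null, at 8.12, 8.08 and 8.17 in wild types of the missense set and at 8.16, 7.85 and 7.94 in missense. Both null samples lay below their wild types (difference -0.21, SE 0.12, 95% interval -0.48 to 0.05, limma adjusted p = 0.697), and missense overlapped its own (difference -0.14, SE 0.10, adjusted p = 0.914).

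Pola1, the catalytic subunit of polymerase alpha, stood at 6.26 and 6.30 in wild types of the null set and at 6.28 and 6.13 in null, and at 6.03, 6.05 and 6.14 in wild types of the missense set and at 6.45, 6.13 and 6.43 in missense. Missense 1 and 3 lay above all their wild types and missense 2 among them. The missense difference was 0.26 (SE 0.11, 95% interval 0.03 to 0.50, limma unadjusted p = 0.0299, adjusted p = 0.884), and the null difference was -0.07 (SE 0.13). Prim1 (primase), Pold3 (polymerase delta), Rfc2 (clamp loader), Rpa2 (single-strand binding), Fen1 (flap removal) and Dscc1 (an alternative clamp loader) had differences between -0.17 and 0.17 in null and between -0.16 and 0.03 in missense.

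The genes of nucleotide supply were the 4 with the lowest median in wild types of the missense set, at -0.26. Rrm2, the small subunit of ribonucleotide reductase, which makes deoxynucleotides, stood at 8.14 and 8.19 in wild types of the null set, at 8.13 and 7.97 in null, at 7.82, 7.89 and 7.81 in wild types of the missense set and at 7.77, 7.96 and 7.81 in missense. All samples of the null set lay above all of the missense set. The wild types differed by -0.33 (SE 0.09, 95% interval -0.52 to -0.13, limma unadjusted p = 0.00336, adjusted p = 0.472), with -0.12 (SE 0.10) in null and 0.01 (SE 0.08) in missense. Rrm1, the large subunit, stood at 8.46 and 8.52 in wild types of the null set, at 8.50 and 8.40 in null, at 8.27, 8.39 and 8.34 in wild types of the missense set and at 8.38, 8.30 and 8.29 in missense. Its null and missense differences of -0.04 and -0.01 had intervals of -0.22 to 0.15 and -0.16 to 0.14, and the wild types differed by -0.16. Tyms, thymidylate synthase, had -0.12 and 0.13. Ung, which removes uracil from DNA, had -0.37 in null and 0.24 in missense, and the difference between these effects was 0.61 (SE 0.30, limma unadjusted p = 0.0646).

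Among the genes that supply histones and keep DNA methylation, 3 of 6 were higher in null, 5 of 6 in missense and 0 of 6 in wild types of the missense set. Chaf1b, a subunit of the assembly factor CAF-1 that places new histones behind the fork, stood at 5.56 and 5.42 in wild types of the null set and at 5.78 and 5.83 in null, and at 5.36, 5.51 and 5.49 in wild types of the missense set and 5.57, 5.82 and 5.64 in missense. Of all genes 22.9% were higher without overlap in null and 6.02% in missense, and the share in both was not counted. Chaf1b was the 1 replication gene whose mutant samples all lay above their wild types in both sets. The differences were 0.31 (SE 0.13, 95% interval 0.02 to 0.60, limma unadjusted p = 0.0364, adjusted p = 0.560) in null and 0.22 (SE 0.11, 95% interval -0.01 to 0.46, limma unadjusted p = 0.0624, adjusted p = 0.902) in missense, and the wild types differed by -0.04. Over 19 other settings the smallest adjusted p of Chaf1b was 0.267 in null and 0.695 in missense.

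Nasp, a chaperone of histones H3 and H4, stood at 9.16 and 9.07 in wild types of the null set, at 9.15 and 9.06 in null, at 8.93, 8.91 and 9.05 in wild types of the missense set and at 9.03, 8.97 and 8.95 in missense. Its differences of -0.01 in null and 0.02 in missense were among the smallest, and the wild types differed by -0.15 (95% interval -0.32 to 0.02). Slbp, which binds histone mRNA, and Uhrf1, which brings the methyltransferase Dnmt1 to new DNA, had null differences of -0.02 and 0.04 and missense differences of 0.01 and 0.04. Hells and Cdca7, partners in a chromatin remodelling complex, had 0.12 and -0.16 in null and 0.16 and -0.09 in missense.

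Of 9 genes of fork protection, checkpoint and repair, 6 were higher in each mutant and 8 were lower in wild types of the missense set. Usp1, which removes ubiquitin from Pcna and Fancd2, stood at 7.96 and 7.99 in wild types of the null set, at 7.84 and 7.71 in null, at 7.57, 7.45 and 7.51 in wild types of the missense set and at 8.04, 7.45 and 7.81 in missense. The missense samples spread over the range of both sets. The wild types differed by -0.46 (SE 0.14, 95% interval -0.77 to -0.15, limma unadjusted p = 0.00752, adjusted p = 0.510). The differences were -0.20 (SE 0.15) in null and 0.25 (SE 0.13) in missense.

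Dtl, the receptor of the ligase that destroys Cdt1 in S phase, had 0.01 and 0.05 in null and missense, Tipin, of the fork protection complex, 0.13 and 0.06, and Clspn, the adaptor of the checkpoint kinase Chek1, -0.16 and -0.11. The helicases Blm and Brip1 had 0.06 and 0.16 in null and 0.09 and -0.12 in missense. Brip1 ran from 4.39 to 5.26 in wild types of the null set alone, and its null interval of -0.69 to 1.01 was the widest of the 42. The exonuclease Exo1 had 0.09 and 0.30, Rad51ap1 0.13 and -0.18, and Wdr76 -0.01 and 0.17.

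Among the regulators, E2f8, a repressor of E2F targets, stood at 5.27 and 5.72 in wild types of the null set, at 5.63 and 5.58 in null, at 5.41, 5.51 and 5.38 in wild types of the missense set and at 5.14, 5.27 and 5.41 in missense. Its differences were 0.11 in null and -0.16 in missense, with overlapping samples in both. Ccne1 and Ccne2, the E cyclins that start S phase with Cdk2, had 0.09 and 0.15 in null and 0.14 and 0.00 in missense, and all 3 genes were lower in wild types of the missense set (-0.27, -0.07 and -0.06 for Ccne1, Ccne2 and E2f8).

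**Figure D3:**
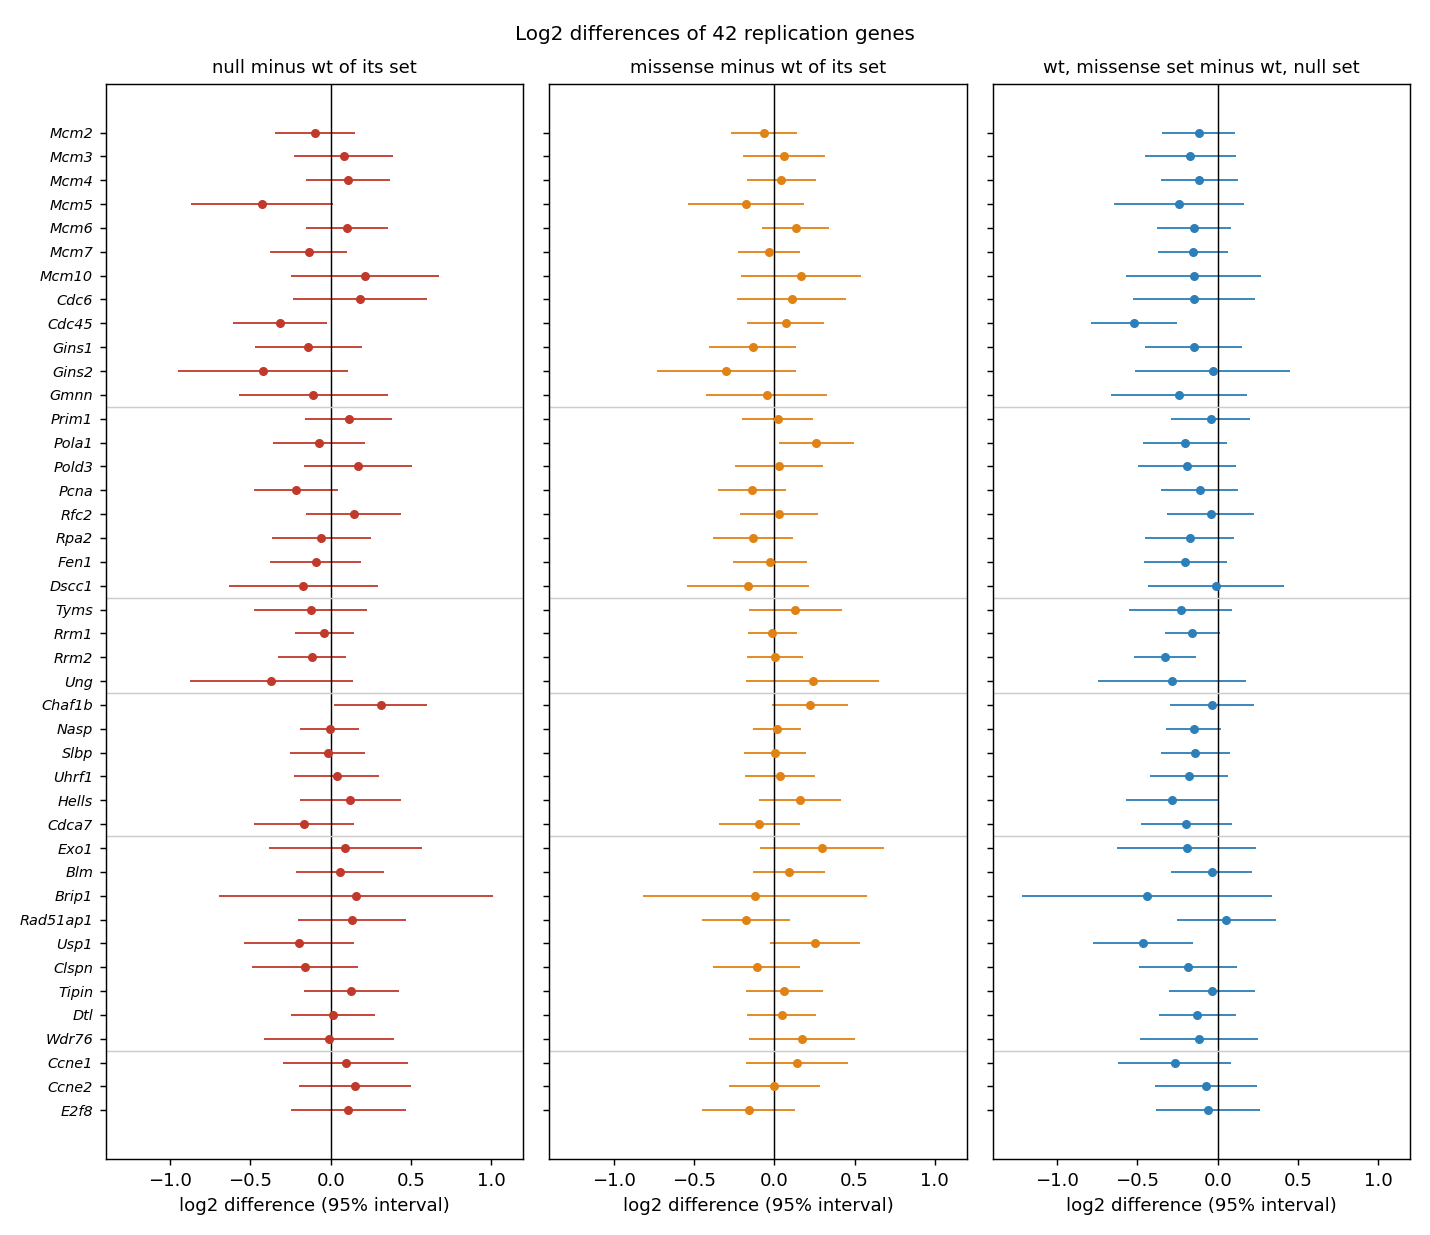
Log2 differences (points) with 95% intervals (bars) for the 42 replication genes, by role, in null against wild type of the null set, missense against wild type of the missense set, and wild type of the missense set against wild type of the null set. Estimates lie on both sides of 0 in the first 2 panels and left of 0 for 41 of 42 genes in the third; Brip1 has the widest interval.

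The difference between the mutant effects was tested directly. For missense effect minus null effect, 0 of the 42 passed at 0.05 after Benjamini-Hochberg adjustment in limma, where 0.0135% of all genes did, and 2 had an unadjusted p under 0.05 (4.76%, against 4.13% of all genes), Usp1 at 0.45 (SE 0.20) and Cdc45 at 0.39 (SE 0.17). For both genes the adjusted p was 1.0. The median over the 42 was 0.03 (all genes -0.01), and for 23 of 42 the interval lay within 0.5 of 0 (19.4% of all genes). For single genes an exact 2-sided permutation test cannot go below p = 0.333 with 2 samples against 2, or below 0.1 with 3 against 3 or 3 against 2.

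Other genes of DNA replication, in 5 lists of 111 measured genes that are no members, had medians near those of the members. In null 57 were higher and 54 lower (median 0.00), and in missense 63 and 48 (median 0.02). In limma 0 passed in either mutant, and 1 gene, lower, had an unadjusted p under 0.05 in each: Asf1a, a histone chaperone, at -0.35 (SE 0.14) in null and Rnaseh2a, which removes RNA from DNA, at -0.49 (SE 0.22) in missense. Over all genes 8.32% in null and 5.54% in missense had such a p. In wild types of the missense set, 89 of 111 were lower (median -0.11) and 0 passed. Over all genes 7.37% had an unadjusted p under 0.05, and 2.43% had it and were lower. Of the 111 there were 10 lower and 1 higher at that threshold. The higher gene was Rrm2b (0.56, SE 0.20), the p53-induced subunit of ribonucleotide reductase, and Dut, which keeps uracil out of DNA, was among the lower (-0.35, SE 0.10). These lists cover origin recognition, polymerases and ligase, nucleotide synthesis, chromatin assembly, and checkpoint and repair. Single differences in them reached -2.73 in null, 1.33 in missense and -3.11 in wild types of the missense set, beyond the range of the members. Mcm9 and Brca2, which belong to these lists, were at the floor in at least 1 sample.

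Regulators of G1/S had medians near 0. Of 33 measured, 15 were higher in null and 16 in missense, with medians of -0.02 and 0.00, and 0 passed in limma, with 3 (1 higher, 2 lower) and 1 (higher) at an unadjusted p under 0.05. Such a p was found for 8.32% of all genes in null and 5.54% in missense. Cdkn1a, a p53 target whose product p21 inhibits Cdk2 and binds Pcna, stood at 4.04 and 3.64 in wild types of the null set, at 5.23 and 4.50 in null, at 4.13, 3.62 and 4.21 in wild types of the missense set and at 5.0, 4.90 and 5.08 in missense. All 5 mutant samples lay above all 5 wild types. Of all genes 22.9% were higher without overlap in null and 6.02% in missense, each against its own wild types. The share with all 5 mutants above all 5 wild types was not counted. The differences were 1.02 (SE 0.27, limma adjusted p = 0.254) and 1.004 (SE 0.22, limma adjusted p = 0.884), beside medians of -0.01 and 0.03 for the 42 replication genes. Of 24 measured p53 targets, 19 were higher in each mutant (medians 0.22 and 0.14). Of them 1, Eda2r, was called higher in missense, just under the threshold (2.63, limma adjusted p = 0.0499). Genes called in missense numbered 3 in the main fit and 2 with median centring. Cdkn1b, which encodes the related inhibitor p27, was at -0.35 (SE 0.10, limma adjusted p = 0.350) in null. In wild types of the missense set 21 of 33 G1/S regulators were lower and 12 higher (median -0.05), and 0 passed in limma. At an unadjusted p under 0.05 there were 2, both lower (6.06%). Over all genes 7.37% had such a p, and 2.43% had it and were lower. In that comparison the G1 cyclin Ccnd1 was at -0.30 (SE 0.12) and E2f1 at -0.27 (SE 0.12), with limma adjusted p of 0.635 and 0.669.

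Genes of G2 and mitosis were also lower across sets. Of 40 measured, 39 were lower in wild types of the missense set (median -0.19), with 0 past the threshold in limma and 7 lower at an unadjusted p under 0.05, among them Dlgap5 (-0.46, SE 0.14) and Ect2 (-0.38, SE 0.12). Over all genes 2.43% had such a p and were lower. In null 25 of 40 were lower (median -0.03) and in missense 16 (median 0.01), and 0 passed in limma, with 2 lower in null and 0 in missense at an unadjusted p under 0.05. The shares of all genes with such a p, in either direction, were 8.32% and 5.54%.

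Markers of cell types differed between the same groups, and in bulk tissue fewer cycling cells and less RNA per cycling cell cannot be told apart. Of 18 neuron markers, 17 were higher in wild types of the missense set than in those of the null set (median 0.25), with Mapt at 0.82 (SE 0.13, limma adjusted p = 0.0745), and their summed level was 5467 to 5618 CPM against 4556 to 5161 CPM. Of 16 neural progenitor markers 12 were lower (median -0.11), among them Hes5 (-0.62, SE 0.14), with summed levels of 4708 to 5182 CPM against 5189 to 5443 CPM. Endothelium markers were higher for 8 of 8 (median 0.23, 261 to 285 CPM against 233 to 243 CPM), microglia markers for 11 of 12 (94.2 to 111 CPM against 73.1 to 79.1 CPM), erythroid markers for 8 of 11 (7224 to 8503 CPM against 5421 to 8580 CPM) and mesenchyme markers for 8 of 10 (1966 to 3230 CPM against 1853 to 2185 CPM). Telencephalon markers were lower for 5 of 8 (median -0.04, 1493 to 1600 CPM against 1516 to 1686 CPM). No marker of the neuron, progenitor, telencephalon, endothelium, erythroid and mesenchyme lists was at the floor in any sample, and 1 microglia marker, Tyrobp, was at it in at least 1. The part of these markers in the lower replication genes was not tested.

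Within the null set the replication genes had a median near 0, and the marker lists had larger ones. Telencephalon markers had the median farthest from 0 of these lists: 6 of 8 were lower in null (median -1.21, 967 to 1142 CPM against 1516 to 1686 CPM). Of these, 3 were called lower in limma in the fit of all samples. That list was split. The 3 were the ventral markers Dlx1, Dlx2 and Nkx2-1, while the cortical markers Emx1, Emx2 and Lhx2 had the small differences given above. In null, 15 of 18 neuron markers were lower (median -0.22, 3788 to 4242 CPM against 4556 to 5161 CPM), 12 of 12 microglia markers higher (median 1.08, 147 to 153 CPM against 73.1 to 79.1 CPM) and 10 of 10 mesenchyme markers higher (median 0.62, 2700 to 3648 CPM against 1853 to 2185 CPM). Endothelium markers were higher for 8 of 8 (median 0.31, 257 to 339 CPM against 233 to 243 CPM) and erythroid markers for 10 of 11 (median 0.28, 7430 to 8831 CPM against 5421 to 8580 CPM). Of 16 progenitor markers 12 were lower (median -0.08, 4811 to 4853 CPM against 5189 to 5443 CPM), of which 1 passed in limma, and 4 were lower at an unadjusted p under 0.05. At that unadjusted threshold 9 microglia, 5 mesenchyme, 2 erythroid and 1 endothelium markers were higher and 7 neuron markers lower, without a call in limma. Over all genes 8.32% had such a p, in either direction. In missense 15 of 18 neuron markers were lower (median -0.12, 4618 to 5486 CPM against 5467 to 5618 CPM), 9 of 12 microglia markers higher (median 0.36, 124 to 145 CPM against 94.2 to 111 CPM), 10 of 10 mesenchyme markers higher (median 0.30, 2482 to 3352 CPM against 1966 to 3230 CPM) and 10 of 16 progenitor markers lower (median -0.04). There 7 of 8 telencephalon markers were lower (median -0.26, 1173 to 1305 CPM against 1493 to 1600 CPM), 3 of 8 endothelium markers higher (median -0.04) and 8 of 11 erythroid markers higher (median 0.20), with 0 of these 3 lists called in limma and 3 telencephalon markers lower at an unadjusted p under 0.05. At that threshold 5 microglia markers and 1 mesenchyme marker were higher and 2 neuron markers lower. Of the progenitor markers 1 was higher and 2 lower there. In missense 5.54% of all genes had such a p, in either direction. The part of these markers in the values of the replication genes was not tested.

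**Figure D4:**
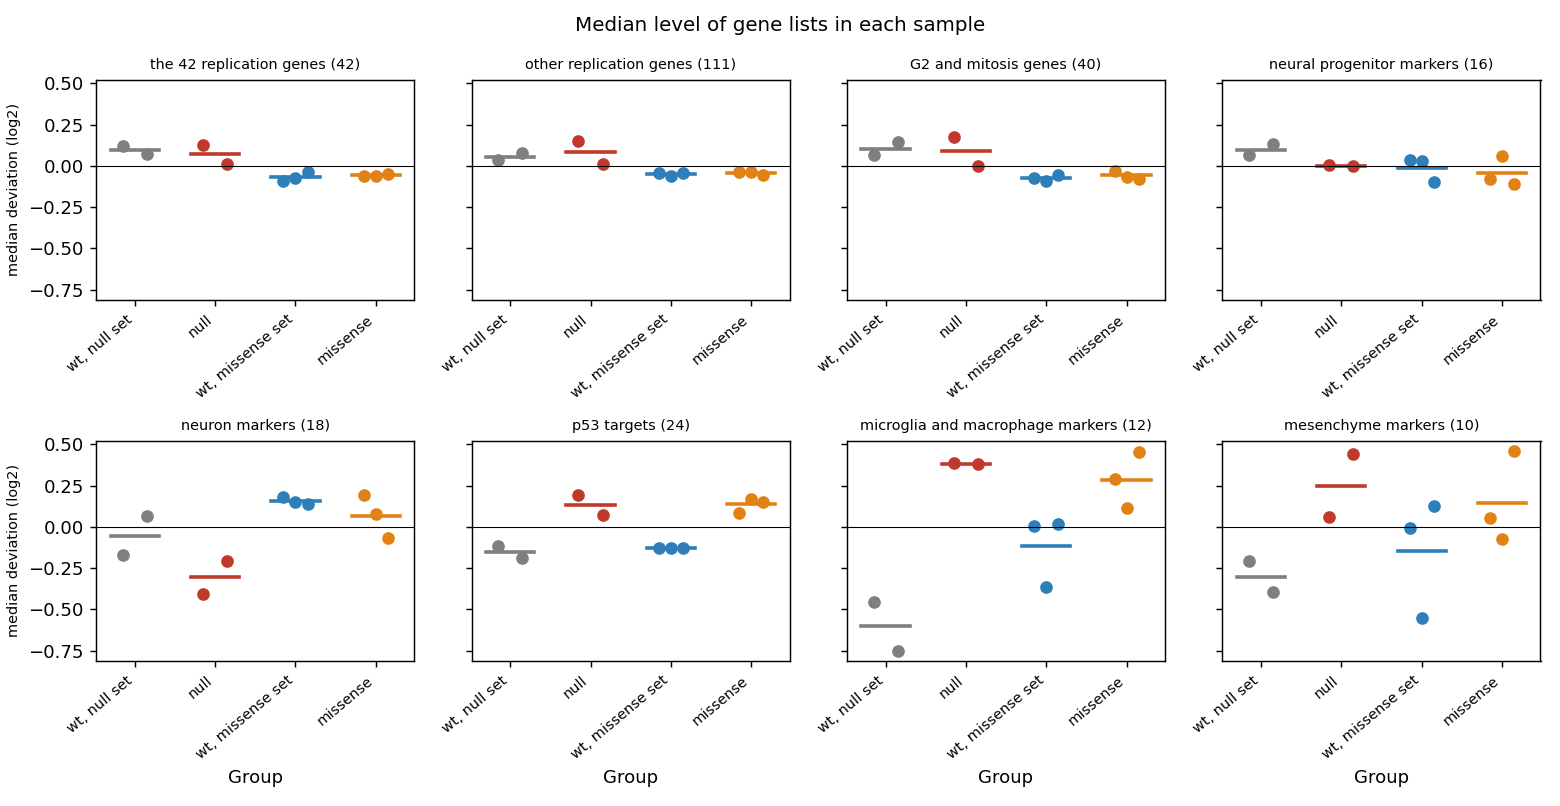
Median deviation from each gene's mean (vertical axis, log2 units) in each sample (points, with the group mean as a line) for the 42 replication genes and 7 other lists, with the number of genes in brackets, over the 4 groups. The points of the replication, other replication and mitosis lists lie above 0 in the null set and below 0 in the missense set and p53 targets lie above 0 in all 5 mutant samples and below 0 in all 5 wild types.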

How the data were processed

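The authors deposited 1 table of log2 values per gene and sample, which its name says was filtered and normalized. The unit was read from the values: back-transformed they sum to 1000453 to 1000891 per sample, with a floor of -3.16, as log2 CPM with a small offset would. Low values show no steps of single reads, and counts could not be recovered. Per the submitters' processing notes the genome build is GRCm39. The sources used here name no aligner, counting tool or gene annotation. One row without a gene name was left out.

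A linear model with the 4 groups was fitted to all 14796 genes and 10 samples with limma 3.58.1 (R 4.3.3), using a mean-variance trend in the moderation (6 residual and 4.83 prior degrees of freedom). Contrasts were each mutant minus the wild types of its set, the difference of these, and wild types of the missense set minus those of the null set. Tests were 2-sided, with Benjamini-Hochberg adjustment over all genes and a threshold of 0.05. Intervals are 95% intervals from the moderated standard errors. A group is called lower without overlap where its highest sample is below the lowest of the other. The fit was tested on simulated data. Replicates were numbered in accession order within groups.

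The members and gene lists were chosen with earlier results of these data known, so no test over a list is given. Given with every sample are members with an unadjusted p under 0.05 in any contrast and the member of highest mean level in each of 6 role sets, and from other lists up to 3 genes of smallest p in a mutant contrast; members beyond these, and genes named in the wild-type contrast, were picked to account for the list or after their values were seen. Lengths are those of GENCODE M21 transcripts. Python 3.11.15 with matplotlib 3.10.9 and pandas 2.3.3 made the figures. Alternatives were no title-number term, median centring, quantile normalization, a pseudocount of 1, no variance trend, removal of genes below the 25th percentile of mean level, robust variances, sample weights, the samples of a contrast alone, leaving out each sample, and shorter E2F strings. The values of some genes that meet this rule are left out here.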

Additional observations from a re-analysis of the deposited data

How the results depend on the processing

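Over all alternatives 0 of the 42 replication genes passed in any contrast, with adjusted p of at least 0.267 in null, 0.663 in missense, 0.280 between wild types and 0.604 for the difference of effects. Between the wild types, 41 of 42 were lower under every alternative that kept all 5 wild types, and 34 to 41 with 1 sample left out, with medians of -0.19 to -0.12. With all 5 wild types as 1 control group the median of the 42 genes became 0.080 in null, with 11 lower, -0.040 in missense, with 26 lower, and -0.13 for the difference; those controls mix the sets. With 1 sample left out the medians ran from -0.067 to 0.044 in null, from -0.00162 to 0.048 in missense and from -0.036 to 0.10 for the difference. In null 30 were lower without null 1 and 15 without null 2. Median centring gave 21 of 42 lower in missense, and quantile normalization turned the null median to 0.0040.

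Counts of all genes called, 24 in null, 3 in missense, 14 between wild types and 2 for the difference, moved more. Without the title-number term they were 59 in null and 9 for the difference. Without the variance trend they were 6 in null and 0 for the difference (limma, 646 at an unadjusted p under 0.05), with the null set alone 0 (1101 at an unadjusted p under 0.05), with the level filter 8 between wild types, and with median centring 1 for the difference. Leaving out 1 sample gave 2 to 23 in null, 2 to 10 in missense, 7 to 21 between wild types and 1 to 10 for the difference. The cause was not tested. The shorter E2F strings TTGGCGC and TTCCCGC occurred in 17 of 32 genes (53.1%) against 7.79% of all. No paired analysis was possible because the title numbers of samples are not shared between the mutant and wild-type samples of a set. The unknown depth and groups of 2 or 3 samples limit the precision, as the intervals show.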
